A study of Mus musculus with 3 samples.

Results

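Lymphocytes enter a lymphnode by binding sulfated sugars on the wall of its high endothelial venules, and 10 genes of the enzymes that build these sugars were followed in popliteal lymphnodes of the mouse. The set was chosen by name: C1galt1, Gcnt1, B3gnt3, B4galt1, St3gal4, St3gal6, Fut4, Fut7, Chst2 and Chst4, out of 48568 gene symbols. All 10 were found, each as a single entry, and all 10 had a mean of at least 1 FPKM in both comparisons. FPKM counts the fragments of a gene per kilobase of its length and per unit of sequencing depth. The nodes came from untreated C57Bl/6 mice at 5 months of age: 6 wildtype females, 6 wildtype males and 3 SryHi males. SryHi mice are the XY males of the FCG model. Their Y chromosome lacks Sry, the testis-determining gene, which an autosomal transgene supplies and overexpresses. Female and SryHi nodes were each compared with wildtype male nodes. RNA of whole nodes was pooled by group into 1 library, so every gene has 1 value per group, nothing here has a replicate check, and no test between groups could be made. The SryHi mice differ from wildtype males both in the missing Sry of the Y chromosome and in the transgene, and the effects of these cannot be told apart.

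Selectins are adhesion receptors that bind sugar chains, and in the lymphnode these chains are carried on mucin-like proteins such as Glycam1. The chain starts on a serine or threonine, is lengthened and branched with galactose and N-acetylglucosamine, and is capped with sialic acid, fucose and sulfate, giving the structure known as sulfated sialyl Lewis x. Some of the enzymes, such as C1galt1 and B4galt1, serve sugar chains of nearly every cell, while Chst4 is known in mouse lymphnodes as a sulfotransferase of the high endothelial venule. In a whole node, fewer cells of a type and less RNA per cell cannot be told apart.

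The libraries matched their labels: Xist was 395 FPKM in females and at most 0.233 FPKM in both male libraries, Ddx3y, Uty, Kdm5d and Eif2s3y were listed at 0 in females and lay between 30.8 and 81.6 FPKM in males, and Sry reached 20.8 FPKM in SryHi against 0 in the wildtype libraries. The total of fragments is not in the tables and was estimated from the steps between low values at 6.1e+06 fragments in the wildtype male library, 5.8e+06 in the female and 5.6e+06 in the SryHi library. Ighj1 and Ighj4, which are joining segments of the immunoglobulin heavy chain, held 75.8, 72.6 and 35.4% of the FPKM total in the same order. The values are given in FPKM as deposited. Rescaling to TPM, which gives every library the same total, moved the median log2 ratio of all genes from 0.01 to -0.19 for females over wildtype males and from 0.04 to 1.37 for SryHi over wildtype males. Scaling to equal totals without immunoglobulin and T cell receptor segments moved it to -0.32 and 0.09.

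The levels of the 10 genes formed a higher and a lower group in all 3 libraries, as the plot of FPKM by library shows. St3gal6, C1galt1, Gcnt1 and B4galt1 lay between 19.6 and 59.6 FPKM, and St3gal4 between 13.4 and 15.2 FPKM. Below a step of 3.35-fold in females, 4.02-fold in wildtype males and 3.44-fold in SryHi males came Fut7, Fut4, Chst2, Chst4 and B3gnt3, between 1.87 and 4.02 FPKM. The enzymes that lengthen and branch the chain, other than B3gnt3, and both sialyltransferases thus stood above both fucosyltransferases and both sulfotransferases. Within the lower 5 genes, neighbours in the order did not differ beyond their 95% counting intervals in any library. Some genes further apart in the order did. In females the interval of Chst4 (2.96 to 5.25 FPKM) lay above that of B3gnt3 (1.51 to 2.92 FPKM). In SryHi those of Fut7 (2.94 to 5.33 FPKM) and Fut4 (3.11 to 4.76 FPKM) lay above that of B3gnt3 (1.27 to 2.62 FPKM). Intervals of levels are exact Poisson intervals and those of ratios between libraries exact binomial ones (Clopper-Pearson). They rest on the fragments estimated behind each value and cover counting error only. The estimates ran from 28 fragments for Chst4 in SryHi to 1389 fragments for St3gal6 in SryHi. In the upper group St3gal6 ranked first in females and SryHi and C1galt1 in wildtype males, but the intervals of these 2 genes overlapped in both wildtype libraries. Chst4 was the 6th gene of the order in females, the 10th in wildtype males and the 9th in SryHi. In each library its interval overlapped those of its neighbours within the lower 5 genes.

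**Figure D1:**
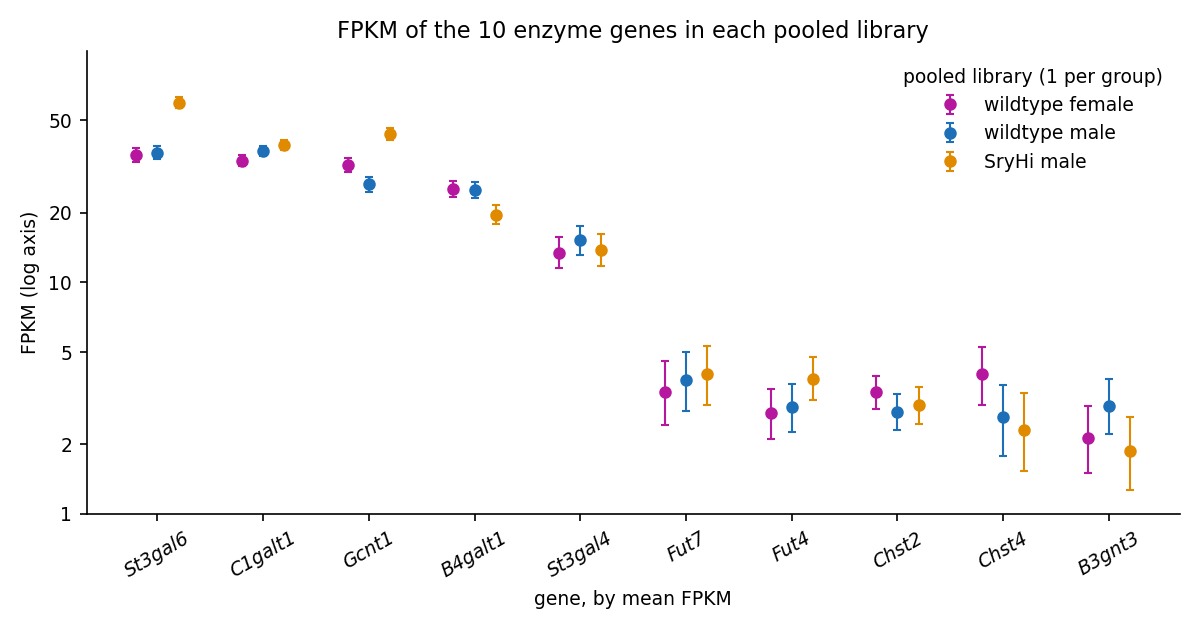
FPKM (log axis) of the 10 enzyme genes in the 3 pooled libraries, 1 point per library, with bars for the 95% counting interval. The points of St3gal6 and Gcnt1 for SryHi, at 59.6 and 43.7 FPKM, stand above the bars of both wildtype libraries, and the 5 genes on the right stay at or below 4.02 FPKM.

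C1galt1 adds galactose to the first sugar of the chain and so makes the core 1 structure. It was 36.9 FPKM in wildtype males, 33.6 FPKM in females and 39.2 FPKM in SryHi. Female nodes had 0.909 times the wildtype male value (95% counting interval 0.841 to 0.983), and SryHi nodes 1.06 times (0.984 to 1.14). The gene lies on chromosome 6 (GRCm38, chr6:7844842-7875687, plus strand, 4 exons). With the coding length in place of the transcript length, which lowers the estimated number of fragments, the female interval ran from 0.753 to 1.10 and took in 1.

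Gcnt1 starts the core 2 branch by adding N-acetylglucosamine to core 1. The gene was 26.5 FPKM in wildtype males, 32.1 FPKM in females and 43.7 FPKM in SryHi. Both other libraries were above wildtype males, SryHi by more than females. The SryHi value was 1.65 times that of wildtype males (1.5 to 1.81), a log2 ratio of FPKM + 1 of 0.70, and 8.22% of the 15566 genes tested in that comparison had a higher ratio. The female value was 1.21 times that of wildtype males (1.10 to 1.34), a log2 ratio of 0.27 that turned to -0.10 with totals equal without immunoglobulin and T cell receptor segments, where it lay 0.22 above the median of all genes. Of all genes, 23.4% had a higher ratio in females. Gcnt1 lies on the minus strand of chromosome 19 (chr19:17326141-17372844) and has 3 annotated starts. The locus in the tables begins at the second of them, which leaves the most upstream start outside it. The 250 bases before both these starts (RefSeq, GRCm38.p6, chr19:17372845-17373094 and chr19:17356668-17356917, minus strand) are shown because Gcnt1 had the largest SryHi ratio of the 10 genes. Capitals mark TATAAA on either strand, which occurs in 12.4% of the 32851 promoter windows of this length. In the upstream window it begins 244 and 29 bases before the start.
Gcnt1 start 1: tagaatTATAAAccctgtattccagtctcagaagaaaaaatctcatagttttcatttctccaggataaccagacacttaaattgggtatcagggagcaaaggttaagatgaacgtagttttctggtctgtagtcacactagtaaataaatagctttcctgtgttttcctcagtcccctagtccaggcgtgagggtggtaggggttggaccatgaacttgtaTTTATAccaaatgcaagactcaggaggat
Gcnt1 start 2: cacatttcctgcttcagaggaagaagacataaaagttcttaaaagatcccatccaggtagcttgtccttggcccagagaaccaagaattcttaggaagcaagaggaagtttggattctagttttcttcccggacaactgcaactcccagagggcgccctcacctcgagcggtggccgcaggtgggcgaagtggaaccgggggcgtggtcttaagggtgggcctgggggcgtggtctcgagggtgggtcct

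B3gnt3 lengthens core 1 with N-acetylglucosamine and so makes a chain that the sulfotransferases can act on. It was 2.92 FPKM in wildtype males, 2.13 FPKM in females and 1.87 FPKM in SryHi, the lowest mean level of the 10 genes. Wildtype males were the highest of the 3 libraries, the reverse of Gcnt1, though on only 32 to 55 estimated fragments per library. The ratio was 0.732 in females (0.471 to 1.13) and 0.641 in SryHi (0.401 to 1.01), and both intervals take in 1. The log2 ratio in SryHi was -0.45 on the deposited scale and 0.51 as TPM, where the median of all genes was 1.37. B3gnt3 lies on the minus strand of chromosome 8 (chr8:71690756-71701789, 3 exons). The window before its start (RefSeq, GRCm38.p6, chr8:71701801-71702050, minus strand) is shown beside those of Gcnt1, since these 2 genes act on the same core and stood at opposite ends of the SryHi comparison. Capitals mark GGGCGG (GC box, in 32.7% of all windows), which begins 50 bases before the start, and AGAACA (core of the androgen receptor motif, in 16.1% of all windows), which begins 125 and 107 bases before it. AGAACA also begins 99 bases before the third start of Gcnt1, whose window overlaps an exon of the gene and is not shown.
B3gnt3: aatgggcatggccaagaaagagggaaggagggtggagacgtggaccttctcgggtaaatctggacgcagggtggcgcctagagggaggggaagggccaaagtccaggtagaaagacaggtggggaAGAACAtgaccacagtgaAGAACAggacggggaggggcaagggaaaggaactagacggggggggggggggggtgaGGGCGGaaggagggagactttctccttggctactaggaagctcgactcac

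B4galt1 adds galactose to N-acetylglucosamine and makes the lactosamine unit that is capped later. Its values were 25.0 FPKM in wildtype males, 25.4 FPKM in females and 19.6 FPKM in SryHi. The wildtype libraries were nearly level, with a ratio of 1.01 (0.904 to 1.14). The log2 ratio between them was 0.02, with a sign that depends on the scale: -0.21 as TPM, -0.002 with the median of all genes set to 0, and -0.34 with totals equal without immunoglobulin and T cell receptor segments. In SryHi the gene was 0.784 times the wildtype male value (0.692 to 0.888), a log2 ratio of -0.34 that became 1.19 as TPM, below the median of all genes at 1.37. Among all genes 21.3% had a lower ratio than B4galt1 in SryHi. The gene lies on the minus strand of chromosome 4 (chr4:40804602-40854005, 6 exons).

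St3gal4 and St3gal6 cap the lactosamine with sialic acid. St3gal6 was 36.3 FPKM in wildtype males, 35.4 FPKM in females and 59.6 FPKM in SryHi. The wildtype libraries were close together and SryHi stood above both. The SryHi value was 1.64 times that of wildtype males (1.51 to 1.79), a log2 ratio of 0.70, and 8.27% of all genes had a higher one. The female ratio was 0.976 (0.888 to 1.07). For St3gal4 the values were 15.2 FPKM in wildtype males, 13.4 FPKM in females and 13.8 FPKM in SryHi. Its ratios were 0.886 in females (0.716 to 1.10) and 0.913 in SryHi (0.737 to 1.13), the latter a log2 ratio of -0.12 that became 1.31 as TPM, and no library stood apart. The sialyltransferases differed in this respect, since only St3gal6 was higher in SryHi beyond counting error.

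Both sialyltransferase genes share exonic sequence with a gene on the other strand, and whether strand was used in counting is not given in the sources used here. Exons of St3gal6 (chr16:58468125-58524243, minus strand) overlap those of Dcbld2 over 1603 bases. Dcbld2 was 2.14 FPKM in wildtype males, 2.10 FPKM in females and 3.37 FPKM in SryHi, far below St3gal6 in each library. Like St3gal6, Dcbld2 was highest in SryHi and close together in the wildtype libraries. Whether shared fragments contribute to these values was not tested. Exons of St3gal4 (chr9:35046576-35119268, minus strand) overlap those of 4930581F22Rik over 412 bases. That gene, at 12.0 FPKM in wildtype males, 20.9 FPKM in females and 25.5 FPKM in SryHi, was above St3gal4 in 2 of the 3 libraries, so the St3gal4 values are uncertain where fragments could be split. The deposited locus of each sialyltransferase also runs past its annotated gene at one end. It is chr16:58408443-58524243 for St3gal6 and chr9:35046579-35176061 for St3gal4. The 250 bases before the upstream start of St3gal6 (RefSeq, GRCm38.p6, chr16:58524254-58524503, minus strand) are shown because this gene and Gcnt1 had almost the same SryHi ratio. The window holds 1 CpG and none of the 6 motifs searched, against a median of 6 CpG over all windows. A second listed start of St3gal6, not shown because its window overlaps an exon of the gene, has 16 CpG and 4 GGGCGG matches in its window, and the windows of Gcnt1 have 2, 10 and 2 CpG.
St3gal6 start 1: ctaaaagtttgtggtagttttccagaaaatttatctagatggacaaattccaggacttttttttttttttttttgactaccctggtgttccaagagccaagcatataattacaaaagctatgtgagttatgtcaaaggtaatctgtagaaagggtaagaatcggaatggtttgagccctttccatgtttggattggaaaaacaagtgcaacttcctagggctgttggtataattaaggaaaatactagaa

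Fut7 and Fut4 add the fucose of sialyl Lewis x, Fut7 being the enzyme most closely tied to selectin ligands in mice. Fut7 was 3.77 FPKM in wildtype males, 3.35 FPKM in females and 4.02 FPKM in SryHi. Fut4 was 2.89 FPKM in wildtype males, 2.74 FPKM in females and 3.85 FPKM in SryHi. For both genes females were lowest and SryHi highest, but by less than counting error. The Fut7 ratios were 0.888 in females (0.570 to 1.38) and 1.07 in SryHi (0.698 to 1.63). The Fut4 ratios were 0.949 in females (0.668 to 1.35) and 1.33 in SryHi (0.965 to 1.84). At 41 to 48 estimated fragments for Fut7 and 65 to 89 for Fut4, differences of this size were not detectable. Fut7 lies on chromosome 2 (chr2:25423267-25426374, plus strand, 2 exons) and Fut4 on chromosome 9 (chr9:14748320-14752393, minus strand, 1 exon).

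Chst4 and Chst2 place sulfate on N-acetylglucosamine. Chst4 was 2.61 FPKM in wildtype males, 4.0 FPKM in females and 2.30 FPKM in SryHi, with the female library the highest. The female value was 1.53 times that of wildtype males (0.973 to 2.45), a log2 ratio of 0.47, the largest of the 10 genes in that comparison. Of the 15523 genes tested 11.2% had a higher ratio, and the counting interval took in 1 at 50 and 34 estimated fragments. The SryHi ratio of Chst4 was 0.882 (0.515 to 1.5), a log2 ratio of -0.13 that became 0.75 as TPM. Chst2 was 2.75 FPKM in wildtype males, 3.36 FPKM in females and 2.94 FPKM in SryHi. Its female ratio was 1.22 (0.953 to 1.56), a log2 ratio of 0.22 that turned to -0.07 with totals equal without immunoglobulin and T cell receptor segments. In SryHi the ratio of Chst2 was 1.07 (0.826 to 1.38). Chst4 lies on chromosome 8 (chr8:110029153-110039740) and Chst2 on chromosome 9 (chr9:95399292-95406722), both on the minus strand with 2 exons.

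None of the 10 genes was 2-fold higher or lower in females than in wildtype males on the log2 scale of FPKM + 1. Over all genes tested in that comparison 2.83% were at least 2-fold higher and 2.77% at least 2-fold lower. At 1.5-fold on that scale the count of the 10 genes was again 0 in each direction, against 7.88% of all genes higher and 7.87% lower. As a plain ratio of FPKM Chst4 passed 1.5-fold at 1.53. The log2 ratio was above 0 for 4 of the 10 genes (51.3% of all genes) and below 0 for 6, and ran from -0.32 for B3gnt3 to 0.47 for Chst4. The median was -0.05 for the 10 genes and 0.01 for all genes. This split depends on the scale: with totals equal without immunoglobulin and T cell receptor segments only Chst4 was above 0 (1 of 10, median -0.37 against -0.32 for all genes), and as TPM only Gcnt1 (1 of the 5 measured, median -0.26 against -0.19). The counting interval left out 1 for 2 genes on the deposited scale, Gcnt1 on the higher side, where equal totals without immunoglobulin and T cell receptor segments turn its sign, and C1galt1 on the lower side. The share of all genes with such an interval was not computed. Intervals narrow with the number of fragments, so nothing about the set is read from this count. Both sulfotransferases were above 0 and both fucosyltransferases and sialyltransferases below 0, but the counting interval of each of these ratios took in 1. The sign of Chst2 also depends on the scale as given above.

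In SryHi over wildtype males none of the 10 genes was at least 2-fold different either, against 3.70% of all genes higher and 4.14% lower. At 1.5-fold on the scale of FPKM + 1 Gcnt1 and St3gal6 were higher and no gene was lower, although B3gnt3 passed 1.5-fold as a plain ratio of FPKM (0.641), against 12.0% of all genes higher and 10.7% lower. The count of 2 of 10 lies near the share over all genes, and nothing about the set is read from it. The log2 ratio was above 0 for 6 of the 10 genes (53.4% of all genes) and ran from -0.45 for B3gnt3 to 0.70 for Gcnt1, with a median of 0.07 against 0.04 for all genes. The counting interval left out 1 for Gcnt1 and St3gal6 on the higher side and for B4galt1 on the lower side, and did so as well with coding lengths. For this comparison too the share of all genes with such an interval was not computed. As TPM all 10 genes were above 0, and 7 of them at least 2-fold higher, as were 77.7% of all genes. Relative to the median of all genes, Gcnt1 and St3gal6 then stood 0.85 and 0.89 higher. Their difference from that median was between 0.60 and 0.89 under every scale, pseudocount and filter tried. A scale multiplies all genes of a library alike, so this difference could vary only through the pseudocount and the filter. Its range is thus no check of the scale.

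**Figure D2:**
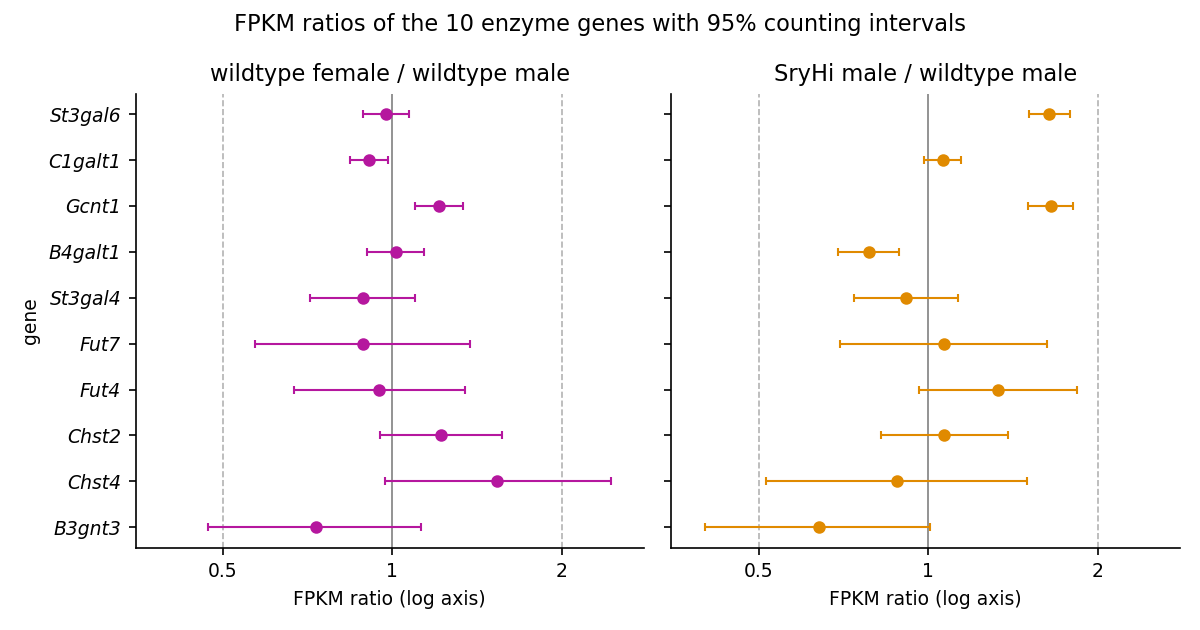
Ratio of FPKM (log axis) of female (left) and SryHi (right) over wildtype male nodes for the 10 enzyme genes, with bars for the 95% counting interval and dashed lines at 2-fold. No point reaches 2-fold, and the largest ratios on the right are those of Gcnt1 at 1.65 and St3gal6 at 1.64.

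**Figure D3:**
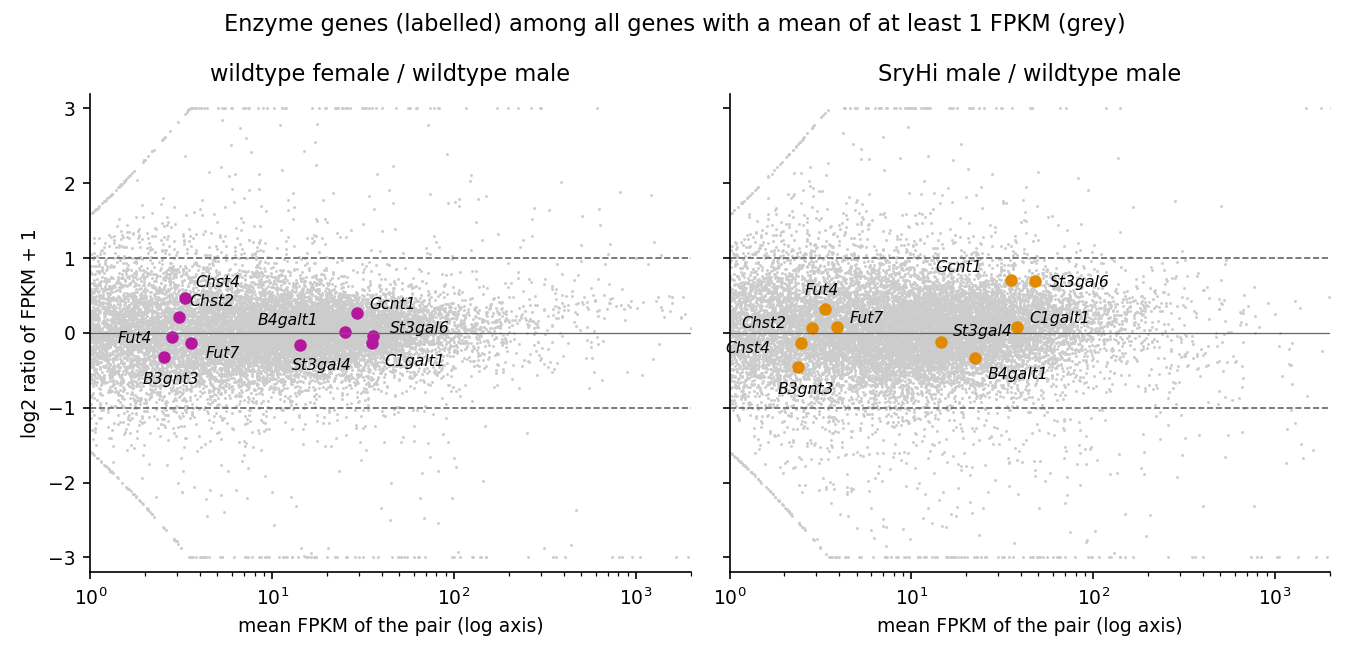
Log2 ratio of FPKM + 1 against the mean FPKM of the pair (log axis) for every gene whose mean was 1 FPKM or more (grey) and the 10 enzyme genes (coloured, labelled), for females (left) and SryHi (right) over wildtype males. Ratios beyond the axis are drawn in a line near its edge, and genes above the highest FPKM of the axis are not drawn. All 10 genes lie between the dashed 2-fold lines, within the cloud of other genes.

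Ratios between genes of the set were taken within each library, since such a ratio does not depend on the scale of the library. The 7 pairs were chosen after the values were seen, so their intervals describe these libraries and are no test. These intervals are approximate (normal on the log scale). St3gal6 over St3gal4 was 2.40 in wildtype males, 2.64 in females and 4.31 in SryHi, and the SryHi ratio was 1.80 times that of wildtype males (1.44 to 2.25). By these values the balance of the sialyltransferases was similar in both wildtype libraries and shifted to St3gal6 in SryHi. The overlapping genes described above leave this balance uncertain, St3gal4 most of all. Gcnt1 over C1galt1, the branching enzyme against the enzyme that makes its substrate, was 0.717 in wildtype males, 0.955 in females and 1.12 in SryHi. It was lowest in wildtype males, with 1.33 times that value in females (1.18 to 1.51) and 1.56 times in SryHi (1.38 to 1.75).

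Gcnt1 over B3gnt3, the branching against the core 1 lengthening enzyme, was 9.08 in wildtype males, 15.0 in females and 23.4 in SryHi. Female and SryHi nodes had 1.65 times (1.08 to 2.53) and 2.57 times (1.65 to 4.02) the wildtype male ratio. Gcnt1 over B4galt1 was 1.06 in wildtype males, 1.26 in females and 2.23 in SryHi, which is 1.19 times (1.03 to 1.39) and 2.10 times (1.81 to 2.45) the wildtype male ratio. So against each of these 3 enzymes Gcnt1 was relatively lowest in wildtype males and highest in SryHi. The 3 comparisons share the same Gcnt1 values and are not separate results. The order does not hold against every enzyme. St3gal6 had nearly the same SryHi ratio over wildtype males as Gcnt1, at 1.64 against 1.65. Fut7 over Fut4, at 1.22, 1.31 and 1.05 in females, wildtype males and SryHi, did not differ between libraries beyond counting error. Chst4 over Chst2 was 1.19, 0.949 and 0.783 in the same order, and neither comparison left out 1. Fut7 over Chst4 was 1.45 in wildtype males, 0.836 in females and 1.75 in SryHi, with a female value 0.579 times that of wildtype males (0.317 to 1.06).

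**Figure D4:**
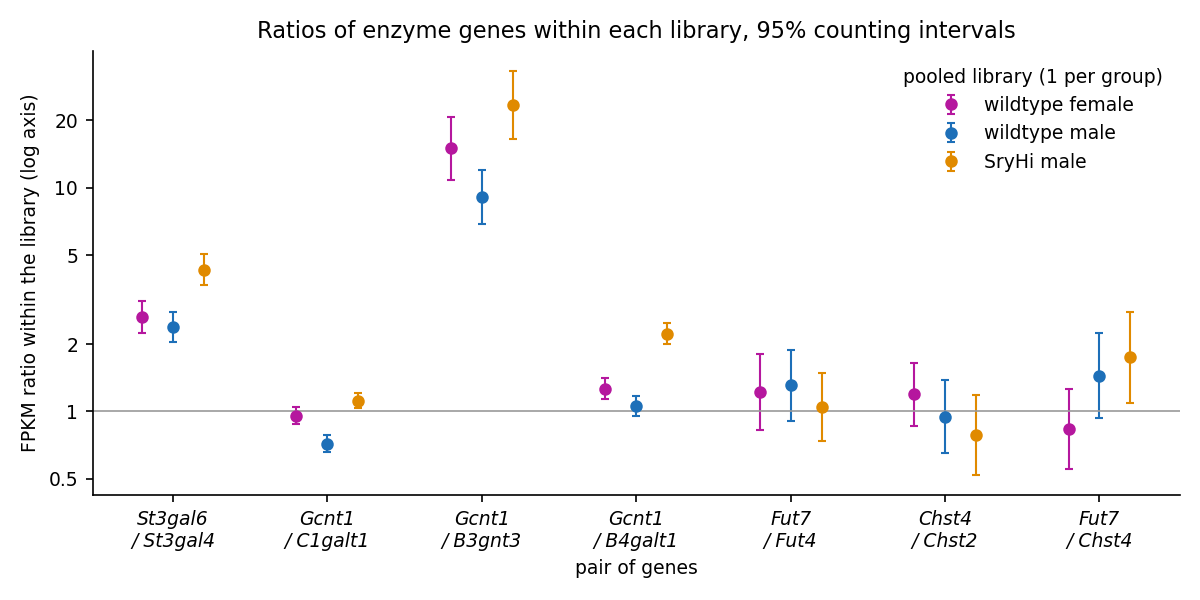
Ratio of FPKM (log axis) of 7 pairs of enzyme genes within each pooled library, with bars for the 95% counting interval. Gcnt1 over C1galt1 rises from 0.717 in wildtype males to 0.955 in females and 1.12 in SryHi, while Fut7 over Fut4 overlaps in all libraries.

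Several of the 10 genes are relatives of each other, and sharing of fragments between them was checked on the reference. Of the 45 pairs of proteins, the most alike were Fut4 and Fut7 with 43.7% identical residues over the shorter protein, St3gal4 and St3gal6 with 36.8%, and Chst2 and Chst4 with 35.3%, while the next pair had 28.5%. The longest identical runs between their longest transcripts were 16, 12 and 12 nt, shorter than the 50 bases of a read mate. The enzymes are 329 (St3gal6) to 530 (Chst2) residues long. Of the windows of 250 bases before the 14 starts of the 10 genes that RefSeq lists, 7 held GGGCGG (32.7% of all windows). AGAACA was found in 3 (16.1% of all windows) and TATAAA in 1 (12.4%). No window held CCGGAA (ETS core, 12.0% of all windows), CACGTG (E box, 6.02%) or AACAAT (SOX core, 9.42%) on either strand. CpG numbers ran from 1 to 44, the lowest before a start of St3gal6 and one of Fut7 and the highest before C1galt1.

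The rest of the pathway was followed in 93 other genes of 10 lists, all of which are in the tables and 8 of which are listed at 0 in all 3 libraries. In females over wildtype males 73 had a mean of at least 1 FPKM, of which 1 was at least 2-fold higher, 1 at least 2-fold lower and 35 above 0, with a median log2 ratio of -0.005. The shares over all genes were 2.83% higher, 2.77% lower and 51.3% above 0. Chst8, a sulfotransferase for N-acetylgalactosamine, was 1.21 FPKM in wildtype males, 3.75 FPKM in females and 0.497 FPKM in SryHi, a female log2 ratio of 1.11. Galnt3, one of the enzymes that put the first sugar on the protein, was 2.49, 0.694 and 1.27 FPKM in the same order, a female log2 ratio of -1.04. In SryHi over wildtype males 71 genes were measured, of which 1 was higher, 1 was lower and 30 were above 0, with a median of -0.02. Here the shares over all genes were 3.70% higher, 4.14% lower and 53.4% above 0. Nothing about the pathway is read from these counts. B3gnt5, which builds lactosamine on glycolipids, was 45.4 FPKM in wildtype males, 63.0 FPKM in females and 91.8 FPKM in SryHi, a log2 ratio of 1.0 at the threshold. Fuk, the kinase of fucose salvage, was 3.10, 1.43 and 1.04 FPKM in the same order, a SryHi log2 ratio of -1.01. Both SryHi counts sit at the edge of the threshold, and B3gnt5 is no longer counted with the median of all genes set to 0. Chst8, Galnt3 and Fuk are too low to be counted at a mean of 5 FPKM.

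The most expressed gene of each list gives its level. Among relatives of the 10 enzymes these were Chst15, a chondroitin sulfotransferase, at 38.7, 38.3 and 36.3 FPKM in females, wildtype males and SryHi, Pofut1, which fucosylates Notch, at 23.8, 18.8 and 20.7 FPKM, and St6gal1, which adds sialic acid in another linkage, at 55.0, 50.3 and 46.5 FPKM. These 3 had higher levels than the 5 lowly expressed members, and the ratios of each were under 2-fold. In the list of galactose and N-acetylglucosamine extension the most expressed gene was B3gnt5, whose SryHi value at the 2-fold threshold is given above. Galnt1, which starts the chains, was 65.9, 62.1 and 78.2 FPKM, and C1galt1c1, the chaperone that C1galt1 needs to fold, 11.7, 9.42 and 10.9 FPKM. In the supply of sugar and sulfate donors, Impad1 for sulfate, Fpgt for fucose, Cmas for sialic acid and Slc35a3 for N-acetylglucosamine had the highest levels, between 14.1 and 32.3 FPKM. Of these Fpgt was 22.3, 15.2 and 14.6 FPKM and Impad1 15.5, 14.1 and 22.9 FPKM in the same order.

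**Figure D5:**
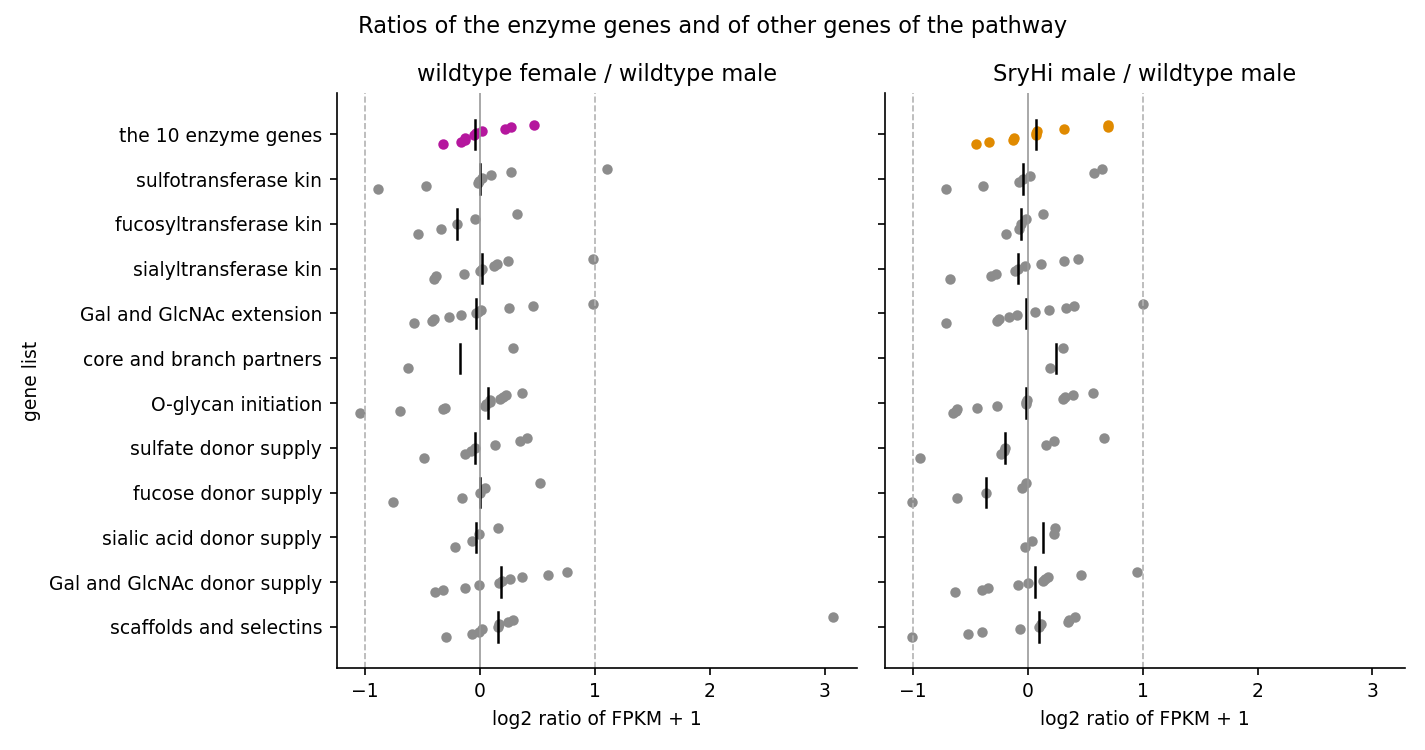
Log2 ratio of FPKM + 1 of each gene (points) of the 10 enzymes (coloured) and of the 11 other lists of the pathway (grey), for females (left) and SryHi (right) over wildtype males, with a black line at the median of each list and dashed lines at 2-fold. The 10 enzymes lie between -0.45 and 0.70, and the point far to the right in females is Glycam1 at 3.08.

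Among the proteins that carry the finished sugar, Glycam1 was 129 FPKM in wildtype males, 1098 FPKM in females and 89.8 FPKM in SryHi, and Madcam1, another carrier, 2.00, 2.03 and 0.493 FPKM in the same order. The other listed carriers, Cd34, Podxl, Emcn, Selplg and Spn, were less than 2-fold different in both comparisons. Their log2 ratios ran from -0.30 (Podxl) to 0.17 (Emcn) in females and from -0.40 (Spn) to 0.36 (Emcn) in SryHi. None of the 10 enzymes had a female ratio near the Glycam1 log2 ratio of 3.08, the nearest being Chst4 at 0.47. Of the other markers of the high endothelial venule, Ubd was 12.5, 33.1 and 16.8 FPKM, a female log2 ratio of 1.34. Ltbr was 7.73, 4.56 and 7.88 FPKM, Ackr1 7.60, 10.7 and 12.3 FPKM and Enpp2 168, 142 and 208 FPKM, so venule markers were detected in all 3 libraries. For the 7 venule markers together the sum was 329, 1292 and 337 FPKM, of which Glycam1 made up most in females, and 2 of the 7 reached 2-fold higher in females and 1 of the 7 was 2-fold lower in SryHi.

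Markers of other cells moved between the libraries. For comparison, 2.83% of all genes were at least 2-fold higher and 2.77% lower in females, and 3.70% and 4.14% in SryHi. Their log2 ratio was above 0 for 51.3% in females and 53.4% in SryHi. Neutrophil markers summed to 380 FPKM in wildtype males, 67.6 FPKM in females and 105 FPKM in SryHi, with 10 of 12 at least 2-fold lower in females and 9 of 12 in SryHi, and Elane listed at 0 in SryHi. T cell markers summed to 513, 655 and 388 FPKM in the same order, with none of 12 at 2-fold but 12 of 12 above 0 in females and 1 of 12 in SryHi. Adipocyte markers summed to 70.9, 67.6 and 152 FPKM, and 4 of the 5 measured were at least 2-fold higher in SryHi. Mast cell markers summed to 234, 105 and 292 FPKM, with 3 of 6 at least 2-fold lower in females and none 2-fold different in SryHi. These shifts accompany the ratios of the 10 enzymes, several of which are made in many cell types, and their part in them was not tested. B cell markers summed to 1293, 1254 and 1233 FPKM, with none of 9 at 2-fold. Those of blood endothelium summed to 338, 286 and 350 FPKM, with none of 13 at 2-fold but 3 of 13 above 0 in females (median log2 ratio -0.26) and 8 of 13 in SryHi (median 0.24). Macrophage markers summed to 624, 347 and 626 FPKM, with 2 of 10 measured at least 2-fold lower in females and Vsig4 listed at 0 in females and SryHi, and lymphatic endothelial markers to 101, 47.6 and 118 FPKM, with 2 of 6 lower in females and 1 of 6 higher in SryHi. The sums were 433, 313 and 271 FPKM for plasma cells, 66.7, 77.1 and 90.0 FPKM for dendritic cells and 330, 223 and 306 FPKM for node stroma. Epithelial markers stayed low, at 4.69, 6.06 and 3.79 FPKM, with Krt19 and Elf5 listed at 0 in both male libraries.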

How the data were processed

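Pooled RNA of whole popliteal lymphnodes (6 wildtype females, 6 wildtype males, 3 SryHi males, 1 library each) was depleted of ribosomal RNA and sequenced from stranded Kapa libraries as 2 mates of 50 bases. The authors aligned reads with HiSat2, handled them with Samtools and estimated levels with Cufflinks and Cuffdiff on mm10 (versions, annotation release and strand setting not given in the sources used here). They deposited 2 Cuffdiff tables, 1 per comparison, with 48808 entries each and the FPKM of both libraries. The other columns hold the authors' log2 fold change, test statistic, p-value, q-value and call and were not used. Lines without values (2 per table) were left out.

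Entries of 231 repeated symbols were summed. The wildtype male values were the same in both tables for 48566 of 48568 symbols and for all 10 genes, so the 3 libraries were set side by side. The log2 ratio of FPKM + 1 was computed where both libraries averaged 1 FPKM or more, and 2-fold, the threshold of the study, counted as higher or lower; such ratios understate changes of low genes. With 1 library per group no test was run. Depth was estimated from FPKM times length of single-transcript genes of 3000 to 8000 nt (108, 101 and 105 genes). Fragments behind a value were estimated from depth and the longest transcript, and 95% intervals are exact Poisson for levels, exact and conditional (Clopper-Pearson) for ratios between libraries, and normal on the log scale for ratios between genes. PCR duplicates are not known, so they cover counting error only. The depth estimate, ratios and intervals were tested on simulated Poisson counts of known depth and transcript length. The simulated intervals used the true counts, and how Cuffdiff sets lengths and assigns fragments was not simulated.

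Annotation came from GENCODE M21 (GRCm38), which holds 95.7% of the symbols, and promoter windows from RefSeq (GRCm38.p6), which matched all 10 genes. Proteins were translated from GENCODE and aligned in pairs with Biopython 1.88; Python 3.11.15, pandas 2.3.3, NumPy 2.4.6, SciPy 1.17.1 and matplotlib 3.10.9 were used. The genes and lists were chosen with earlier results of these data known. Named genes were the 10 enzymes, every other pathway gene at least 2-fold different, and the gene with the highest mean FPKM of each list; carriers, markers and overlapping genes named besides these were chosen after their values were seen. Alternatives were other pseudocounts (0.1 and 5 FPKM), filters (none, a mean of 5 FPKM), scales (TPM, median of all genes set to 0, equal totals without immunoglobulin and T cell receptor segments), a 1.5-fold threshold, the largest entry per symbol and coding lengths.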

Additional observations from a re-analysis of the deposited data

How the results depend on the processing

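No library could be left out, since each group has 1. No paired analysis was possible because each group has a single pooled library. For the 10 enzyme genes, the counts at 2-fold were 0 in both directions and comparisons under each alternative, except for SryHi over wildtype males as TPM, where 7 were higher and their median log2 ratio was 1.19 (all genes 1.37), and at the 1.5-fold threshold, where 2 were higher in SryHi. With coding lengths 1 female ratio had a counting interval that left out 1 in place of 2. Other pathway genes at least 2-fold different were recounted under 3 alternatives, not as TPM or with equal totals: with a pseudocount of 0.1 FPKM 3 were higher and 3 lower in females and 2 higher and 3 lower in SryHi, with a mean of at least 5 FPKM 0 were higher and 0 lower in females and 0 lower in SryHi, and with the median of all genes set to 0 none (0) was higher in SryHi. Lower pseudocounts and filters admit larger ratios of low genes by construction. Of the 20 ratios of single genes, 5 of 15 changed sign as TPM, where only those with a mean of at least 1 TPM were kept, 3 of 20 with totals equal without immunoglobulin and T cell receptor segments, 1 of 20 with the median set to 0, and 0 under each other alternative. Depth limits the 5 lowly expressed genes: at 28 to 144 estimated fragments, ratios such as the 1.53 of Chst4 could not be told from 1.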
